A study of Ailuropoda melanoleuca with 25 samples.

Results

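The genes described here were 30 of the 25376 genes measured in giant panda tissues. They carry names of G protein-coupled receptors other than chemokine receptor names, with 2 relatives, RAMP1 and PTGFRN, that are not receptors of this class. They were chosen by name: every gene whose symbol in the study's supplementary table of tissue-specific differentially expressed genes (DEGs) begins with one of a fixed set of receptor stems (such as ADGR, GPR, P2RY, or VIPR) was taken and looked up by its identifier. That table was made from the same libraries, by the authors' calls of a tissue against each of the other 4, so the difference between a receptor's listed tissue and the others chose the receptor and is given below as a description, with no test. Genes outside the table carry no name here, so receptors that just missed it could not be named. The 30 genes held 31 listings, namely 7 heart, 2 liver, 11 spleen, 4 lung, and 7 kidney listings, with GPR39 listed for both the heart and the spleen.

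Heart, liver, spleen, lung, and kidney were collected soon after death from each of 5 giant pandas, and 1 RNA library was sequenced per tissue and panda, 25 in all. Panda 1 was a female of 27 years with ovarian cancer, and panda 2 was a female of 9 years whose cause of death is recorded as "ileac pssion". Pandas 3 and 4 (females) and panda 5 (a male) were 0.5 years old and died with a coronavirus infection, so the age of a panda, what it died of, and when it died coincided and cannot be told apart.

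G protein-coupled receptors sit in the cell membrane, bind a ligand outside the cell, and switch on heterotrimeric G proteins inside it, which then act on enzymes such as adenylyl cyclase and phospholipase C. Most are made at low RNA levels and by few cell types, so a tissue's set of receptors follows both its cells and the hormones, transmitters, and lipids it answers to. Accessory proteins such as the RAMPs set which ligand some of these receptors bind.

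Levels are given as FPKM, the reads on a gene divided by its length and by the reads of the library, as the authors deposited them. Libraries held between 13149580 and 21383380 reads on genes (median 16215829), and whole reads were recovered from the FPKM steps for each of the 30 genes. In these bulk tissues, fewer cells of a type and less RNA per cell cannot be told apart. Marker genes had an identifier only where the authors' table of tissue-specific DEGs named them. Their sums were thus not independent of the tissue labels, and are given as a description and not as a check. The summed FPKM of 6 cardiomyocyte genes was between 47011 and 61068 in the heart and at most 31.7 elsewhere. That of 6 kidney tubule genes was between 1046 and 12625 in the kidney and at most 9.00 elsewhere. For 6 lung epithelium genes it was between 14240 and 48739 in the lung and at most 178 elsewhere. Hepatocyte genes (4 of 6 with an identifier) summed to at least 17556 in the liver and at most 748 elsewhere, and 6 B cell genes to at least 4610 in the spleen and at most 547 elsewhere. Liver replicate 3 stood apart from the other livers, being the lowest of the 5 livers for 64.6% of the genes expressed there.

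By mean FPKM, 27 of the 30 genes were highest in the tissue they were listed for, and the other 3 (GPR39, GPR182, and PTGER3) were listed for a tissue where they were low. A mean FPKM above 1, the level taken as expressed, was reached in 1 tissue by 11 genes, in 2 tissues by 10, in 3 by 3, in 4 by 3, and in all 5 by 3. In 15 listings the 5 libraries of the listed tissue lay above the other 20 and in 3 they lay below, while in 13 the libraries overlapped. Among all 18701 expressed genes, the share whose 5 libraries lay above the other 20 was 3.41% (heart), 1.56% (liver), 5.32% (spleen), 4.20% (lung), and 2.27% (kidney). The share lying below was 3.86% for the heart and 8.35% for the liver, and nothing is read from these counts because the listing used the same contrast. Without the spleen library of panda 2, 24 listings did not overlap in place of 18.

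**Figure D1:**
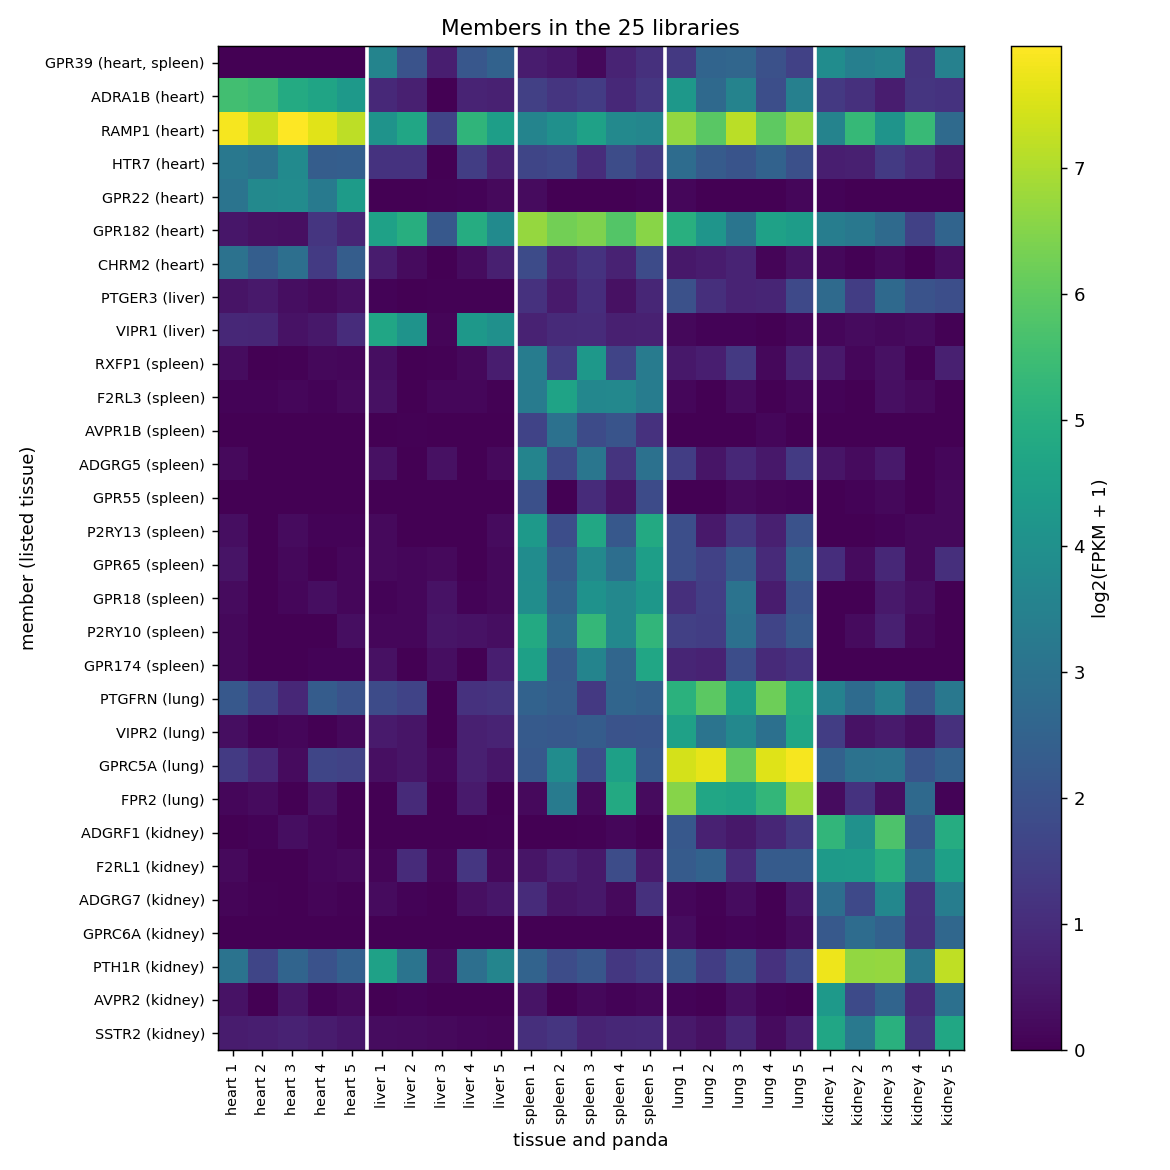
Each row is 1 of the 30 genes (its listed tissue in brackets), each column 1 of the 25 libraries by tissue and panda, and the colour is log2(FPKM + 1). By mean level, rows are brightest in their listed tissue except GPR39, GPR182, and PTGER3, which are dark there, and liver 3 is dark for VIPR1 (0.0778 FPKM).

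Receptors of the autonomic transmitters were listed for the heart. ADRA1B (ENSAMEG00000006563), the alpha-1B adrenergic receptor for noradrenaline and adrenaline, was at 46.3, 41.8, 28.2, 24.1, and 18.5 FPKM in the hearts of pandas 1 to 5. Its next level was in the lung, at 17.9, 5.58, 10.9, 2.79, and 10.1 FPKM. All 5 hearts lay above every other library, the lowest heart only just above the highest lung.

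CHRM2 (ENSAMEG00000019733), the muscarinic M2 receptor through which the vagus slows the heart, was at 6.99, 4.21, 6.47, 1.56, and 4.10 FPKM in the hearts. In the spleens it was at 2.53, 0.759, 1.25, 0.714, and 2.51 FPKM, so the heart of panda 4 lay within the range of the spleens. HTR7 (ENSAMEG00000016787), a serotonin receptor that raises cyclic AMP, was at 8.08, 7.03, 13.03, 4.06, and 4.20 FPKM in the hearts and at 6.09, 3.86, 3.23, 4.66, and 2.81 FPKM in the lungs, and these ranges overlapped. Heart and lung are thus neighbours in the order of HTR7 levels that do not part beyond their spread.

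GPR22 (ENSAMEG00000019029), an orphan receptor, was at 7.43, 12.5, 13.2, 8.57, and 19.6 FPKM in the hearts and at no more than 0.168 FPKM in any of the other 20 libraries. No other heart receptor was so nearly absent elsewhere: a mean of 12.3 ± 4.79 FPKM (SD, n = 5) in the heart stood against tissue means of at most 0.0466 FPKM. RAMP1 (ENSAMEG00000008513), which joins the calcitonin receptor-like receptor to form the receptor for the vasodilator CGRP, was the most abundant of the heart-listed genes per length, at 229, 160, 249, 193, and 142 FPKM. It was also at 101, 59.9, 139, 62.4, and 103 FPKM in the lungs, and the lowest heart lay only slightly above the highest lung.

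Of the lists of other signalling genes, few had an identifier, and those that did were DEGs in the authors' table, so their counts are not an unselected sample. Of 33 G protein subunit genes 3 had one, and GNB3, a beta subunit, was higher in the heart than in each other tissue, at 57.9, 49.4, 34.4, 31.3, and 43.2 FPKM. Of 18 cyclic nucleotide phosphodiesterase genes 4 had one, and PDE1C, which breaks down cyclic AMP and cyclic GMP, was higher in the heart than in each other tissue, with a mean of 20.6 FPKM. PNMT, the enzyme that makes adrenaline, one of the ligands of ADRA1B, was at 63.2, 81.9, 40.9, 64.8, and 48.4 FPKM in the hearts and at most 3.03 FPKM elsewhere. "Higher than each other tissue" here means that limma gave an adjusted p under 0.05 and more than 2 on the log2 scale against all 4 other tissues, which 1.62% of all expressed genes met for the heart.

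The heart also carried 2 listings for absence. GPR39 (ENSAMEG00000003064), a zinc-sensing receptor, had no read in any of the 5 hearts. The kidneys held 13.7, 9.74, 10.8, 1.28, and 10.4 FPKM, a mean at least 283-fold higher than the level that 3 reads over all 5 hearts would give. GPR39 was at 11.1, 3.08, 0.583, 3.46, and 4.65 FPKM in the livers and at 1.5, 4.95, 5.19, 2.97, and 1.89 FPKM in the lungs, while its spleens, for which it was listed too, ranged from 0.133 to 1.14 FPKM.

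GPR182 (ENSAMEG00000019381), a receptor known from sinusoidal and lymphatic endothelium, was at 0.406, 0.282, 0.263, 1.34, and 0.782 FPKM in the hearts, below all 20 other libraries. Its highest level was in the spleen, at 104.5, 76.6, 84.3, 56.0, and 92.8 FPKM. It followed in the liver, at 22.5, 30.7, 3.59, 29.8, and 13 FPKM, and the lung, at 31.6, 16.9, 7.49, 22.4, and 20.3 FPKM, which overlapped each other. The kidney was lower by mean, and its range of 1.92 to 9.29 FPKM overlapped those of the liver and the lung. This gene was listed for the heart, and every spleen lay above every library of the other 4 tissues.

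In the liver, VIPR1 (ENSAMEG00000012541), a receptor for vasoactive intestinal peptide and PACAP, was at 25.05, 16.2, 0.0778, 18.1, and 15.0 FPKM, against at most 1.02 FPKM in the other 20 libraries. The liver of panda 3 lay far below the other 4 livers and below many libraries of other tissues. PTGER3 (ENSAMEG00000003871), a prostaglandin E2 receptor that lowers cyclic AMP, was listed for the liver as low, at 0 to 0.0514 FPKM. It was at 5.76, 1.74, 5.62, 3.07, and 2.79 FPKM in the kidneys and at 0.732 to 2.93 FPKM in the lungs.

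**Figure D2:**
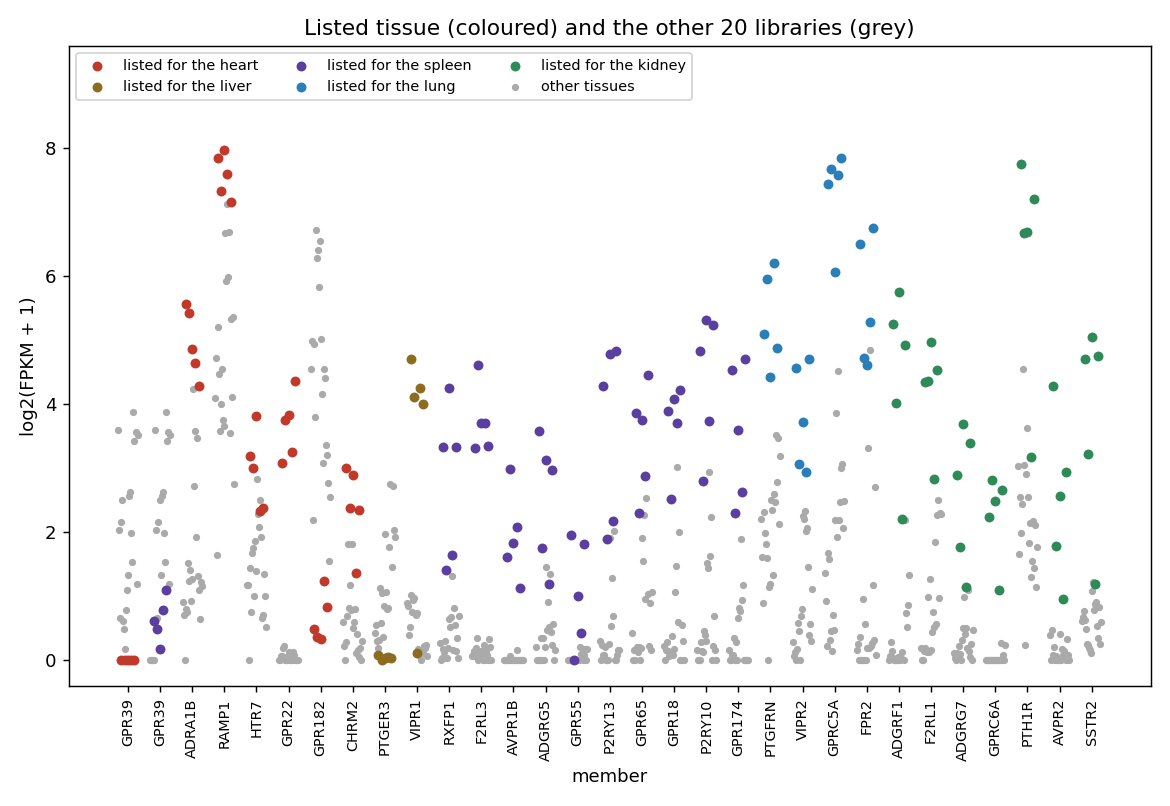
Coloured points are the 5 libraries of a gene's listed tissue and grey points its other 20 libraries, on a log2(FPKM + 1) axis; GPR39 appears once for each of its listings. GPR22, F2RL3, and GPRC5A leave a wide gap between colours and grey, while HTR7, CHRM2, GPR65, and PTH1R overlap.

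The spleen list was the longest and held receptors of blood cells. P2RY10 (ENSAMEG00000020169) and GPR174 (ENSAMEG00000020171), receptors for lysophosphatidylserine on lymphocytes, were at 27.6, 5.98, 39.0, 12.3, and 36.9 FPKM and at 22.2, 3.93, 11.1, 5.21, and 25.2 FPKM in the spleens of pandas 1 to 5. Both were lowest in pandas 2 and 4. GPR174 had no read in any kidney, so its spleen mean was at least 350-fold higher than the level of 3 reads over the 5 kidneys.

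P2RY13 (ENSAMEG00000019079), an ADP receptor of myeloid cells, was at 18.5, 2.71, 26.5, 3.53, and 27.6 FPKM in the spleens. GPR65 (ENSAMEG00000019904), a proton-sensing receptor of immune cells, was at 13.6, 3.91, 12.5, 6.39, and 21.1 FPKM, and GPR18 (ENSAMEG00000020118), a lipid receptor of lymphocytes, at 13.9, 4.73, 15.8, 12.1, and 17.6 FPKM. For these 3 receptors as well, the spleens of pandas 2 and 4 were the lowest pair, and the lowest spleen fell within the range of the lungs. In RefSeq's panda annotation (assembly ASM200744v3, used for names and neighbours only), GPR18 overlaps UBAC2, P2RY13 overlaps MED12L, and GPR22 overlaps COG5, so reads in the shared stretches may not have been assigned to these receptors.

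ADGRG5 (ENSAMEG00000017060), an adhesion receptor of leukocytes, was at 10.9, 2.38, 7.76, 1.29, and 6.86 FPKM in the spleens, and GPR55 (ENSAMEG00000018810), a receptor for lysophosphatidylinositol, at 2.88, 0, 0.994, 0.344, and 2.51 FPKM. GPR55 had no read in any heart or liver, and its spleen mean was at least 36-fold and 40.9-fold higher than 3 reads over those groups. RXFP1 (ENSAMEG00000002276), the relaxin receptor, was at 9.10, 1.64, 18.1, 2.12, and 9.04 FPKM in the spleens and at most 1.48 FPKM elsewhere.

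The remaining pair of spleen receptors had another order of pandas. F2RL3 (ENSAMEG00000010196), the thrombin-activated receptor PAR4 known from platelets, was at 8.91, 23.6, 12.02, 12.1, and 9.15 FPKM in the spleens and at most 0.271 FPKM elsewhere. AVPR1B (ENSAMEG00000012699), a vasopressin receptor known from the pituitary, was at 2.04, 6.92, 2.54, 3.22, and 1.183 FPKM and had no read in any heart or kidney, so its spleen mean was at least 107-fold and 104-fold higher than 3 reads over those groups. In both, the spleen of panda 2 was the highest of the 5.

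Thrombin arises from prothrombin (F2), which was at 44.3 to 1429 FPKM in the livers and at most 4.74 FPKM elsewhere. Vasopressin's own gene, AVP, was at 123, 18.0, 38.6, 31.7, and 107 FPKM in the livers and at 37.3, 17.5, 16.4, 1.87, and 41.5 FPKM in the kidneys, with at most 0.461 FPKM in any heart, spleen, or lung. The ligand's RNA was thus low in the spleen, where AVPR1B was highest, and present in the kidney, where AVPR2 was highest. By mean FPKM, AVP was higher in the liver (63.7) than in the kidney (22.9). In the liver AVPR1B averaged 0.00815 FPKM and AVPR2 0.00889 FPKM. Liver and spleen thus did not have the RNA of AVP and of AVPR1B or AVPR2 high together, whereas the kidney had both AVP and AVPR2. A vasopressin receptor outside the authors' table carries no name here, so no statement is made for such receptors.

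Spleens of pandas 2 and 4 were the lowest pair in 8 of the 11 spleen listings, a pattern shown by 31.1% of the 15346 genes expressed in the spleen. This pair was picked after the values were seen. The summed FPKM of the T cell genes (CD3D, CD3E, and CD5, the 3 of 6 with an identifier) was 840, 123, 285, 204, and 1008 in the 5 spleens, again lowest in pandas 2 and 4. The sum of the 6 B cell genes was 10007, 8552, 4610, 6904, and 7235, lowest in panda 3. No B or T cell marker was at 0 in a spleen, and the part of these cells in the receptor levels was not tested.

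**Figure D3:**
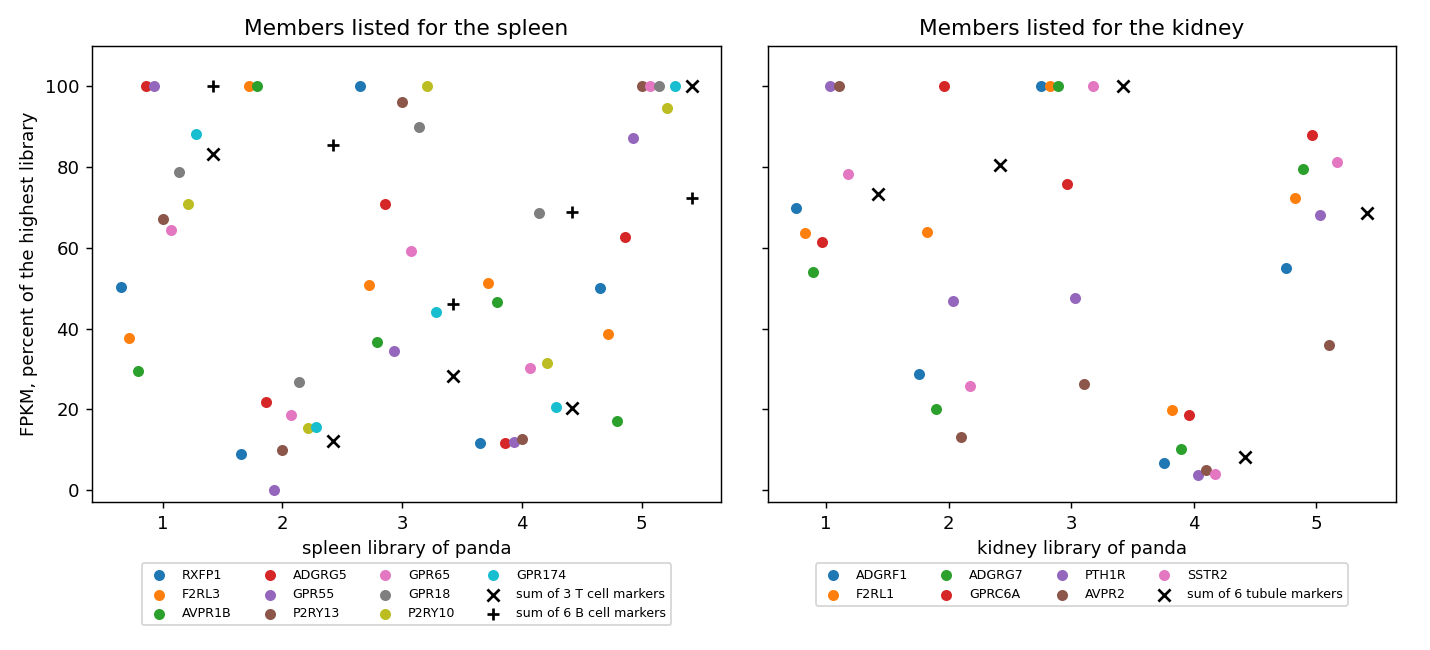
Each coloured point is a gene's FPKM in 1 spleen (left) or kidney (right) library as a percent of that gene's highest library of the tissue, by panda, and black crosses are marker sums on the same scale. Most spleen receptors are low in pandas 2 and 4 with F2RL3 and AVPR1B as exceptions, and all 7 kidney receptors are lowest in panda 4, as is the tubule sum.

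GPRC5A (ENSAMEG00000010738), an orphan receptor of airway and alveolar epithelium that retinoic acid induces, had the highest level among the genes listed for the lung. It was at 173, 203, 65.7, 190, and 230 FPKM there, against at most 22.0 FPKM in any other library. FPR2 (ENSAMEG00000019729), the formyl peptide receptor by which neutrophils and monocytes sense bacteria and tissue damage, was at 90.2, 25.5, 23.3, 37.8, and 107 FPKM in the lungs. VIPR2 (ENSAMEG00000008448), the other receptor for vasoactive intestinal peptide, was at 22.6, 7.33, 12.1, 6.66, and 25.1 FPKM.

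PTGFRN (ENSAMEG00000005188), an immunoglobulin-like membrane protein that inhibits ligand binding by the prostaglandin F receptor, was at 33.1, 61.4, 20.4, 72.7, and 28.4 FPKM in the lungs and at most 10.5 FPKM elsewhere. The lungs of pandas 2 and 4 were the highest for PTGFRN and among the lower ones for VIPR2. The VIP receptors thus had separate peaks by level, VIPR1 in the liver at a mean of 14.9 ± 9.15 FPKM and VIPR2 in the lung at 14.8 ± 8.59 FPKM (SD, n = 5 each), while VIPR1 in the lung averaged 0.0666 FPKM and VIPR2 in the liver 0.446 FPKM.

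Outside the lung, FPR2 differed widely between pandas. It was at 0.138, 8.94, 0.139, 27.8, and 0.163 FPKM in the spleens, and at 0.203, 1.26, 0.237, 5.55, and 0.0561 FPKM in the kidneys. Livers held 0, 0.937, 0, 0.476, and 0 FPKM, and hearts 0.111, 0.185, 0, 0.283, and 0 FPKM. Pandas 2 and 4, 1 older and 1 young, were thus the highest pair in all 4 tissues other than the lung, a pattern that 200 of 18701 expressed genes (1.07%) shared. The pair and the tissues were picked after these values were seen, so the share is a description and not a test. The order in the hearts rested on 0 to 5 reads per library (10 over all hearts), and 3 livers had no read. The spleen of panda 4 was above the lowest 2 lungs. None of the 8 neutrophil marker genes had an identifier here, so the levels of these cells could not be set beside FPR2.

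Pandas 2 and 4 were also the highest pair for GPRC5A in the spleen, at 13.6 and 22.0 FPKM against 3.57, 2.79, and 3.56 FPKM in pandas 1, 3, and 5. For F2RL1 the same pair was highest in 3 tissues, with 0.985 and 1.41 FPKM in the liver against at most 0.116 FPKM in the other pandas, and 0.678 and 2.58 FPKM in the spleen against at most 0.477 FPKM. The third tissue was the lung, and 3.73% of the 18701 expressed genes had this pair as the highest in liver, spleen, and lung together. Within single tissues the share was 24% in the liver, 14.1% in the spleen, and 17.3% in the lung. Here too the pair and the tissues were picked after the values were seen.

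Markers of lung epithelium stood apart in some of the same libraries. The sum of the 6 marker genes with an identifier was 35.5, 39.2, 60.7, 178, and 37.3 FPKM in the 5 spleens, highest in panda 4, where SFTPC was at 99.3 FPKM against 0 to 6.07 FPKM in the other spleens and SFTPB at 19.3 FPKM against at most 1.13 FPKM. SFTPC was at 0 in the spleens of pandas 1 and 5, where the sums were still 35.5 and 37.3 FPKM. Most of the sum in those spleens thus came from markers other than SFTPC and SFTPB. Outside the lung the sum is therefore not read as a level of lung epithelium. In the livers and hearts the sum was highest in panda 4 too, at 14.2 and 12.9 FPKM, whereas in the kidneys, at 15.4 to 174 FPKM, panda 4 was the lowest. In the spleen of panda 2, where FPR2 and GPRC5A were also raised above pandas 1, 3, and 5, the sum lay within the range of those spleens. The part of lung epithelium in the levels of FPR2, GPRC5A, and F2RL1 was not tested.

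**Figure D4:**
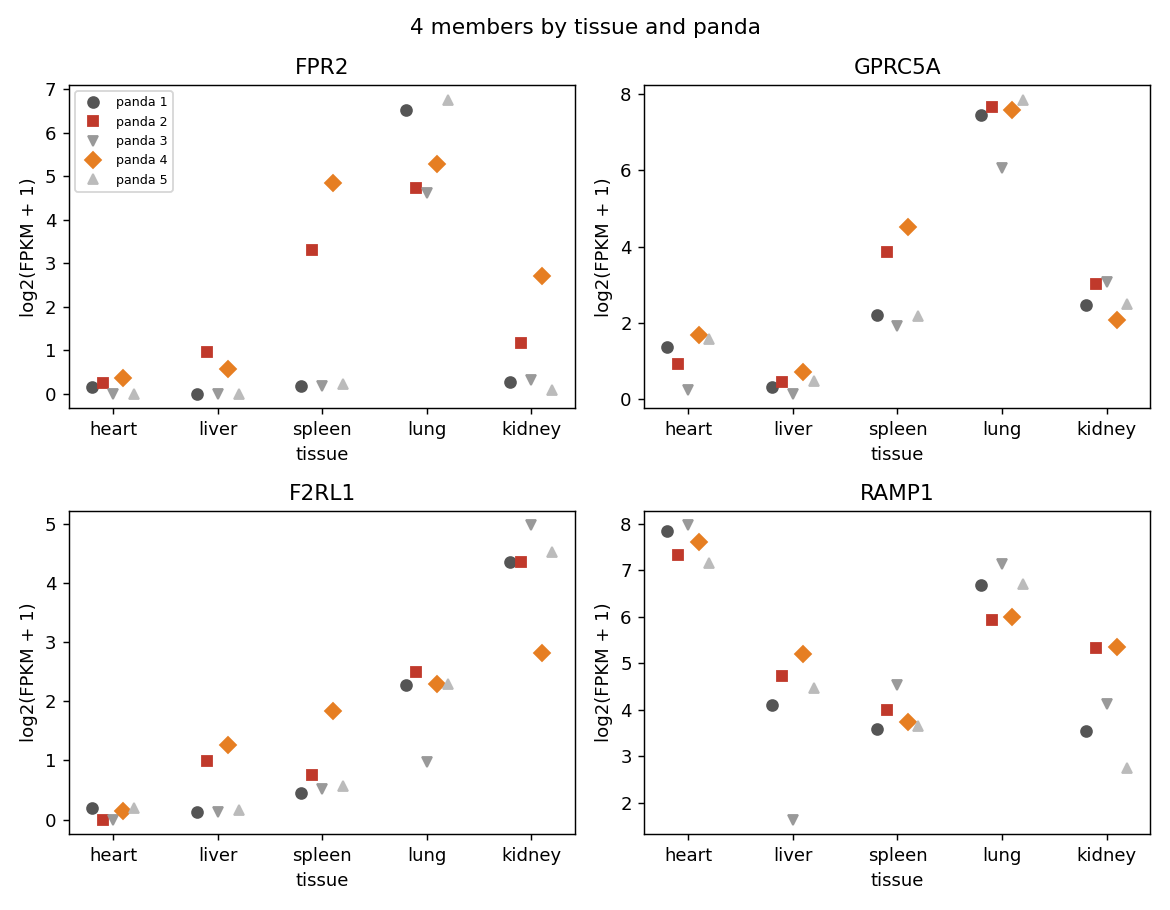
Points are log2(FPKM + 1) of 1 panda in 1 tissue for FPR2, GPRC5A, F2RL1, and RAMP1. For FPR2, pandas 2 (red squares) and 4 (orange diamonds) are the highest pair in heart, liver, spleen, and kidney but not in the lung. No heart held more than 5 reads of FPR2. RAMP1 is highest in the hearts of all pandas.

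The kidney list held receptors for hormones and for proteases. PTH1R (ENSAMEG00000012602), the parathyroid hormone receptor that controls phosphate and calcium reabsorption, was at 216, 101, 103, 8.07, and 147 FPKM in the kidneys. It was followed by the liver, at 22.3, 7.32, 0.183, 6.48, and 11.4 FPKM, so the kidney of panda 4 lay within the range of the livers. SLC34A1, the proximal tubule phosphate transporter that parathyroid hormone lowers, was at 512, 225, 174, 22.1, and 341 FPKM in the same kidneys, with panda 1 highest and panda 4 lowest for both genes.

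AVPR2 (ENSAMEG00000018460), the vasopressin receptor that makes the collecting duct take up water, was at 18.6, 2.44, 4.90, 0.942, and 6.66 FPKM in the kidneys and at most 0.381 FPKM elsewhere. HSD11B2, the only collecting duct marker of 5 with an identifier, was at 233.8, 139, 158, 13.7, and 181 FPKM in the same kidneys. Both were highest in panda 1 and lowest in panda 4.

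SSTR2 (ENSAMEG00000019456), a somatostatin receptor that lowers cyclic AMP, was at 25.1, 8.31, 32.1, 1.28, and 26.1 FPKM in the kidneys. F2RL1 (ENSAMEG00000001809), the trypsin-activated receptor PAR2, was at 19.5, 19.6, 30.5, 6.08, and 22.1 FPKM. The lowest kidney of SSTR2 fell just below the highest spleen (1.34 FPKM), whereas every kidney of F2RL1 lay above the highest lung (4.67 FPKM).

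ADGRF1 (ENSAMEG00000001556), an adhesion receptor, was at 37.0, 15.3, 53.0, 3.60, and 29.2 FPKM in the kidneys, and its lowest kidney barely passed its highest lung (3.58 FPKM). ADGRG7 (ENSAMEG00000003893), another adhesion receptor, was at 6.43, 2.40, 11.9, 1.22, and 9.47 FPKM and at most 1.14 FPKM elsewhere. GPRC6A (ENSAMEG00000005823), a receptor sensing basic amino acids and divalent cations, was at 3.72, 6.04, 4.58, 1.13, and 5.32 FPKM and had no read in any heart, liver, or spleen, with a kidney mean at least 322-fold, 366-fold, and 283-fold higher than 3 reads over those groups.

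The kidney of panda 4 was the lowest of the 5 for all 7 kidney-listed receptors, a rank it held for 46.9% of the 15173 genes expressed in the kidney. The sum of the 6 tubule markers was 9250, 10170, 12625, 1046, and 8677 FPKM in the 5 kidneys, lowest in panda 4 as well. Panda 4 was thus low in tubule markers and in kidney receptors together, and the part of tubule content in the receptor levels was not tested.

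Of 105 other G protein-coupled receptor genes on a list fixed by name, 13 had an identifier, and 6 were higher in 1 tissue than in each of the 4 others. These were NPY1R and NPY5R, receptors for neuropeptide Y, in the spleen, APLNR, the apelin receptor, in the lung, CASR, the calcium-sensing receptor, and SCTR, the secretin receptor, in the kidney, and CRHR2, a receptor for urocortins, in the heart. NPY1R was at 112, 123, 272, 159, and 125 FPKM in the spleens, above all the spleen-listed receptors described here. CASR was at 13.8, 0.936, 11.5, 0.151, and 7.66 FPKM and SCTR at 47.9, 31.8, 69.9, 2.60, and 34.8 FPKM in the kidneys, with panda 4 again the lowest. In the kidney, 1.94% of all expressed genes were higher than in each other tissue, in the spleen 1.74%, and in the lung 1.40%.

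Of 46 ligands and partners 5 had an identifier, and 4 were higher in 1 tissue than in each other one, namely F2 in the liver, PNMT in the heart, and SLC34A1 and SLC34A3 in the kidney. Of 10 adenylyl cyclases 1 had an identifier, ADCY1, which was at 26.5, 110, 3.17, 87.7, and 11.4 FPKM in the livers and higher there than in each other tissue, as were 1.36% of all expressed genes. Of 21 RGS genes and 4 phospholipase C beta genes 1 each had an identifier (RGS7 and PLCB4), and neither was higher or lower in 1 tissue than in each other one. None of the 11 receptor kinase and arrestin genes had an identifier.

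Pairs of tissues for which a gene was not listed were tested with limma on log2(FPKM + 1). The listing did not compare these tissues with each other, but it compared both with the listed tissue, so their values are not independent of the choice of genes. Of 177 such combinations of gene and pair, 81 (in 19 genes) passed the filter of a mean FPKM above 1 in at least 1 of the tissues, and 11 (in 5 genes) were DEGs by the same limits. Over all genes and all 10 pairs, 18.3% of the tests gave a DEG and 59.1% an adjusted p below 0.05, the latter met by 55 of the 81. Of the 81, 45 passed the filter through 1 tissue alone and had to be higher there, among them 38 of the 55 and 4 of the 11 DEGs, so neither count is support for a difference. In the other 36, with a mean above 1 FPKM in both tissues, 7 were DEGs and 17 had an adjusted p below 0.05. The share among all genes above 1 FPKM in both tissues was not taken, so nothing is read from these counts either. By pair, the DEGs were 1 of 5 tested for heart and spleen (23.3% of all genes), 2 of 10 for liver and spleen (29.9%), 2 of 13 for liver and lung (29.0%), and 1 of 7 for liver and kidney (14.0%). They were 2 of 9 for spleen and lung (6.88%), 1 of 10 for spleen and kidney (14.3%), and 2 of 11 for lung and kidney (12.2%).

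There were 0 DEGs by limma among the 3 genes tested for heart and liver (15.7% of all genes), the 9 for heart and lung (22.9%), and the 4 for heart and kidney (15.3%). An unadjusted p below 0.05 was reached by 1, 8, and 3 of them, and limma-voom on the recovered reads called 0, 8, and 2. The 8 for heart and lung all entered through the lung alone, so their direction was fixed by the filter. Shares of all genes were not taken at these limits, so nothing is read from these counts. Differences on the log2(FPKM + 1) scale understate the change of low genes, and with a pseudocount of 0.1 or with limma-voom 44 and 45 of the combinations were called. The share of all genes called was not taken at these settings either. Since 45 of the 81 combinations had to be higher in the tissue through which they entered, these counts are no support for a difference.

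The deposited values were not scaled between libraries, and the median gene was higher by 1.16 (log2) in the spleen than in the heart, by 1.29 in the spleen and 1.28 in the lung than in the liver, and by 0.89 in the kidney than in the liver. It fell by 0.03 from spleen to lung, by 0.41 from spleen to kidney, and by 0.43 from lung to kidney. After TMM factors 6 combinations were DEGs, 3 of them among the 11, and after quantile normalization 7, of which 4 were among the 11.

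GPR182 was higher in the spleen than in the kidney by 3.67 on the log2 scale (SE 0.33, adjusted p = 2.15e-06, limma), in 5 of 5 pandas. It was higher in the spleen than in the lung by 2.11 (SE 0.32, adjusted p = 0.000333) and than in the liver by 2.26 (SE 0.49, adjusted p = 0.0012), also in 5 of 5 pandas each. The calls against kidney and lung held under both scalings, whereas the difference from the liver was 0.69 (adjusted p = 0.115) after TMM and 1.17 (adjusted p = 0.00716) after quantile normalization. Without liver replicate 3 it was 1.79, and without lung replicate 3 the spleen and lung differed by 1.82, each short of the limit of 2.

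RAMP1 was higher in the lung than in the spleen by 2.58 (SE 0.27, adjusted p = 1.88e-05), than in the liver by 2.46 (SE 0.58, adjusted p = 0.00222), and than in the kidney by 2.26 (SE 0.47, adjusted p = 0.00181), in 5 of 5 pandas each. After the heart, the lung thus held the next level of this partner of the CGRP receptor. The call against the spleen held under both scalings. The difference from the liver was 0.87 (adjusted p = 0.12) after TMM, 1.86 without liver replicate 3, and 1.43 (adjusted p = 0.011) after quantile normalization. The difference from the kidney stayed a call after quantile normalization, at 2.24 (adjusted p = 0.00688), and was 1.72 (adjusted p = 0.0251) after TMM and 1.89 without kidney replicate 5. Liver and spleen did not pass the test as deposited (0.12 higher in the liver, adjusted p = 0.853), but after TMM and quantile normalization RAMP1 was higher in the liver by 1.62 (adjusted p = 0.00925) and 1.51 (adjusted p = 0.00518). Liver and kidney (adjusted p = 0.818) and spleen and kidney (adjusted p = 0.584) did not pass the test, nor did they under either scaling, and the direction of liver against kidney changed under both.

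ADRA1B was higher in the lung than in the kidney by 2.1 (SE 0.39, adjusted p = 0.000867), in 5 of 5 pandas. Lung and liver differed by 2.56, also in 5 of 5 pandas, but with a liver mean of 0.584 FPKM the gene entered that comparison through the lung alone, so its direction was fixed by the filter and no p is given. Against the spleen it was higher in the lung by 1.92 (adjusted p = 0.00188), within the limit of 2. After TMM the differences from liver and kidney were 1.67 and 1.56, and without lung replicate 1, lung replicate 3, or kidney replicate 3 that from the kidney was short of the limit, at 1.83, 1.998, and 1.985. Liver, spleen, and kidney were all at or below 1.85 FPKM for this receptor.

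The other 3 calls were of the same kind. GPRC5A, with a liver mean of 0.348 FPKM, entered through the spleen or the kidney alone, and its levels there lay above the liver by 2.52 and 2.20 (log2), in 5 of 5 pandas each. After TMM these differences were 1.72 and 1.78, and the spleen and the kidney did not differ by the test (-0.32 for kidney minus spleen, adjusted p = 0.6), with the opposite sign under both scalings. VIPR2, with a heart mean of 0.0986 FPKM, entered through the spleen alone and lay 2.04 above the heart, in 5 of 5 pandas, with 3.07 to 4.02 FPKM in the spleens and at most 0.223 FPKM in the hearts. The spread between spleens of VIPR2 was small, and the difference was 1.48 after TMM and 1.36 after quantile normalization.

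**Figure D5:**
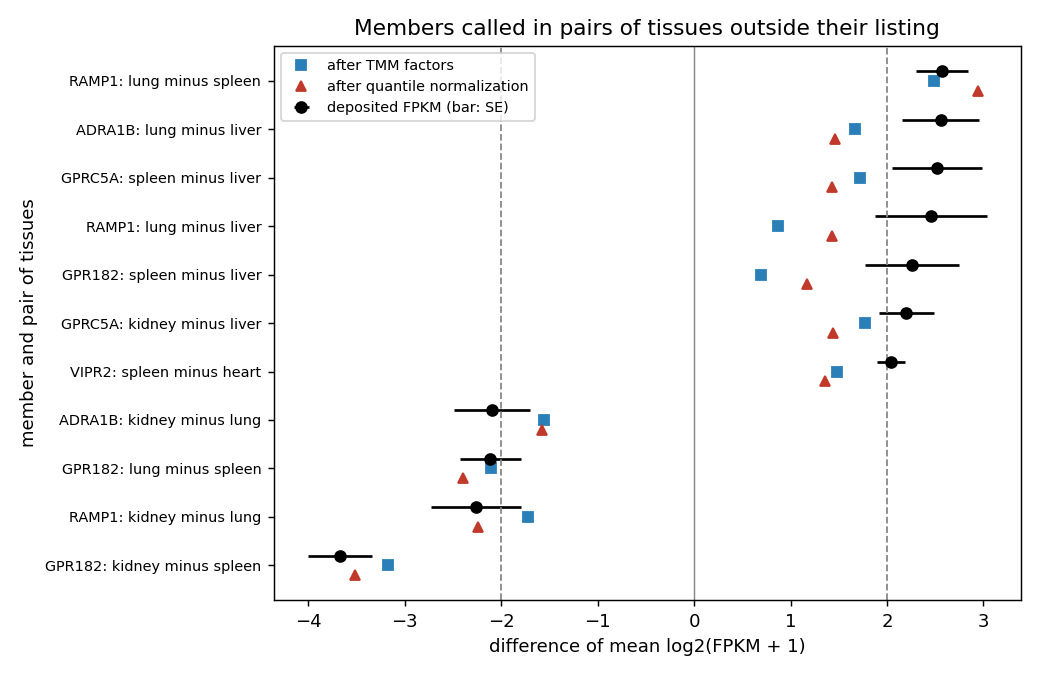
Points are the differences of mean log2(FPKM + 1) between the named tissues for the 11 calls, as deposited (black, bars are the SE), after TMM factors (blue), and after quantile normalization (red), and dashed lines mark a difference of 2. RAMP1 and GPR182 between spleen and lung, and GPR182 between spleen and kidney, stay beyond 2 in all 3, while the calls against the liver fall short of 2 after scaling.

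Under the scalings, PTH1R was called higher in the liver than in the spleen (2.09 after TMM, 2.1 after quantile normalization) and than in the lung (2.24 and 2.31), and GPR182 higher in the liver than in the kidney (2.48 and 2.35). As deposited, these differences were 1.0, 1.15, and 1.41. After scaling, 66 of the 81 combinations still had a value under both. The direction changed under at least 1 scaling in 9 of the 81, and 1 of these had an adjusted p below 0.05 as deposited (ADRA1B, 0.64 above the liver in the spleen, the tissue through which it entered), while 0 of the 11 calls changed direction.

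Of the 10 genes listed for the spleen alone, 8 had the lung as their next tissue by mean FPKM. The share of all genes with this order was not taken, so the count is not read as a trait of these receptors. The median gene shifted by 0.03 (log2) between spleen and lung, against 1.16 between heart and spleen. In 5 of the 8 the lung mean was above 1 FPKM. These were P2RY13, GPR65, GPR18, P2RY10, and GPR174, which lay between 0.86 and 1.86 (log2) higher in the lung than in the heart, the liver, or the kidney, with an adjusted p below 0.05 in 15 of 15 tests (limma). Each of them passed the filter through the lung alone, so the count is no support for a difference, and 71.4%, 66.7%, and 33.0% of all genes were higher in the lung than in heart, liver, and kidney at that threshold. After scaling, 9 of the 15 still had a value, all higher in the lung, and 8 of them passed the threshold after TMM and 7 after quantile normalization. GPR18 no longer passed for lung and liver (adjusted p = 0.064 after TMM and 0.251 after quantile normalization), nor did P2RY10 after quantile normalization (adjusted p = 0.163). In the lungs of pandas 1 to 5, GPR18 was at 1.10, 1.78, 7.14, 0.512, and 3.02 FPKM and P2RY10 at 1.87, 1.71, 6.70, 2.08, and 3.72 FPKM, with panda 3 the highest. The B cell sum was highest in that lung too, at 547 FPKM against 179 in the lowest lung, and its part in these levels was not tested.

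The 3 young and 2 older pandas were compared within each tissue. Limma called 0 genes of 12657 (heart), 12355 (liver), 15346 (spleen), 15858 (lung), and 15173 (kidney), which is 0% of all genes in each, and so 0 of the 8, 6, 20, 18, and 15 receptors tested. At an unadjusted p below 0.05 there was 1 receptor in the heart, where 4.41% of all genes passed, and 0 in the liver (0.704%), the spleen (10.6%), the lung (1.14%), and the kidney (3.01%). The 1 receptor was ADRA1B, named for this after its values were seen, which fell by 0.89 on the log2 scale from older to young hearts (SE 0.32, unadjusted p = 0.0262, adjusted p = 0.999, limma). Its 2 older hearts, at 46.3 and 41.8 FPKM, lay above the 3 young ones, at 18.5 to 28.2 FPKM. The interaction of age class and tissue was called for 0 of 18701 genes and 0 of the 30 receptors, with 0.690% of all genes and 0 of the 30 receptors at an unadjusted p below 0.05.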

How the data were processed

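Per the labels and the study's methods, the authors sequenced libraries made with the NEBNext Ultra kit, aligned the reads to ailMel1 with HISAT2 (version 2.0.4), assembled transcripts with Cufflinks (version 2.1.1) and counted reads per gene with HTSeq (version 0.9.1, union mode). The authors deposited FPKM values, with no scaling between libraries beyond the division by reads, and used DESeq for the table that listed the genes described here. Dividing the lowest FPKM values of a gene gave the whole reads behind them for 24112 of 24207 genes, at a tolerance of 0.05 reads, a step tested on simulated data. Bounds against a group without reads used 3 reads over the group and cover counting error only.

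Samples were grouped by tissue and numbered by panda. Pairs of tissues were tested by limma 3.58.1 under R 4.3.3, allowing the variance a trend, on log2(FPKM + 1) values. Tests were two-sided and Benjamini-Hochberg adjusted over the genes whose mean FPKM exceeded 1 in either tissue. DEGs had adjusted p-values under 0.05 and log2 differences of more than 2 in size. Young and older pandas were compared within tissues, and the interaction was an F test with the panda as a block (consensus correlation 0.167). The fits were tested on simulated data. Within a tissue each panda gave 1 library, so p-values for young against older pandas measure the spread between pandas. The main fits of pairs of tissues ignored that both tissues came from the same pandas. Their p-values measure the spread between libraries within tissues, and not that of the difference within a panda. Libraries of the same number came from the same animal: after removal of tissue means, 49 of 50 same-panda pairs correlated above 0.1 (median 0.367, against -0.122 for different pandas).

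Alternatives were TMM factors (30% of log ratios and 5% of levels trimmed), quantile normalization, a pseudocount of 0.1, no filter, the panda as a block, 1 fit over all libraries, each library left out, and, added after seeing the data, limma-voom on the recovered reads. Every gene of the set was named with its values. Genes of the other lists were named where a tissue differed from all 4 others in them, or where they were a ligand, partner, or effector of a receptor described. The genes, lists, and marker genes were chosen with earlier results of these data known. Names came from the study's supplementary table, and 28 of the 30 symbols were found in RefSeq's table. Tables and figures were made in Python 3.11.15 (pandas 2.3.3, numpy 2.4.6, scipy 1.17.1, matplotlib 3.10.9). The erythroid list had 1 gene with an identifier and the neutrophil and platelet lists none, and no sequences were analysed here.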

Additional observations from a re-analysis of the deposited data

Results flagged for a closer look

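In 67 groups of 5 libraries, 5 held a library whose gap to the nearest of the others exceeded 0.71 of the range. The limit gives about 1 in 20 for independent, normally distributed values. FPKM need not be so distributed, and the groups shared the same 25 libraries, so that rate may not hold here. F2RL3 was at 23.6 FPKM in spleen replicate 2, against 8.91 to 12.1 FPKM in the other spleens. GPR174 was at 2.71 FPKM in lung replicate 3, against 0.709 to 1.25 FPKM in the other lungs, and the B cell sum was highest in that lung. FPR2 was at 5.55 FPKM in kidney replicate 4, against at most 1.26 FPKM in the other kidneys. PTGFRN was low in spleen replicate 3, at 1.52 FPKM against 4.07 to 5.08 FPKM, and F2RL1 was low in lung replicate 3, at 0.965 FPKM against 3.84 to 4.67 FPKM.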

How the results depend on the processing

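Among the pairs of tissues outside a gene's listing, 11 combinations were DEGs as deposited, 6 after TMM factors, 7 after quantile normalization, 44 with a pseudocount of 0.1, and 45 with limma-voom on the recovered reads, which was chosen after seeing the data. Shares of all genes were taken for the deposited values alone, so the counts under the other settings have no background beside them. The 11 were also called with a pseudocount of 0.1 and with limma-voom. The count was 11 without the filter, in 1 fit over all libraries, and with the panda as a replicate block, which changed no call. Of the 11 named differences, 8 fell short of the limit of 2 after TMM and 7 after quantile normalization, in the same direction. Leaving out 1 library gave between 9 and 12 DEGs, and 268 named values kept their call. Listings that did not overlap numbered 18 to 24 with 1 library left out, 23 after TMM, and 21 after quantile normalization. No receptor was called between young and older pandas or in the interaction, 0 to 0 with each panda left out, and 0 with or without the replicate block. Depth limits the receptors at 0 reads, for which a lower bound alone can be given.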
